A study of Sus scrofa with 27 samples.

Results

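The genes described here encode the proteins that mark DNA replication origins, load and switch on the replicative helicase, and copy DNA at the fork. They were given as 48 symbols in 9 roles, and each of the 48 was found in the count files with a mean count of at least 5. They make up 48 of the 11384 named genes tested. Their RNA was measured by RNA-seq in mural granulosa cells (GCs), the layers of somatic cells next to the wall of the follicle, of 13 full-fed (FF) and 14 feed-restricted (RES) sows, with 1 library for each sow. The sows of both groups were wild type and labelled Large White times Norwegian Landrace. FF sows received 6.5 kg of feed a day and RES sows 3.25 kg a day over the final 2 weeks of lactation, after which both groups were fed alike until the ovaries were taken on day 2 post-weaning; the labels call this full feeding, while the methods of the study give an amount below that of either diet. The sows were in their first parity, and were picked from 2 larger feeding groups for a high (RES) or low (FF) loss of body weight. GCs were cut by laser capture microdissection from 1 follicle a sow, the largest that looked healthy in the right ovary. By the measurements of the study these follicles were smaller in RES, so diet, weight loss and follicle size cannot be told apart; size was not analysed here.

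Replication starts when the origin recognition complex (ORC) binds DNA and, with CDC6 and CDT1, loads rings of MCM2 to MCM7. In S phase the kinase CDC7 with its activator DBF4, CDC45, the GINS complex and MCM10 turn the loaded ring into the CMG helicase, which opens DNA ahead of the polymerases. Primase and polymerase alpha start each strand, polymerases epsilon and delta extend them, replication factor C (RFC) loads the sliding clamp PCNA, and replication protein A (RPA) coats single-stranded DNA. GCs divide rapidly while an antral follicle grows and slow down as the follicle nears ovulation.

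The libraries held 12299220 to 16021200 counts in FF and 12942198 to 18120922 in RES. Counts were divided by size factors estimated over 17467 identifiers averaging 5 counts or more, and these values are called normalized counts. The 8 granulosa markers with an identifier summed to 71150 to 121900 normalized counts in FF and 76750 to 146800 in RES, and none of the 8 tested was called. Of the oocyte markers, ZP2, ZP3 and BMP15 had mean counts of 0.556, 0.37 and 1.15 and OOSP2 had no count, while GDF9 had a mean count of 222. RES sow 7 stood apart over the replication genes, being the lowest RES sow for 41 of the 48. The highest RES sow was RES sow 3 for 21 genes and RES sow 1 for 18. The highest FF sow was FF sow 4 for 20 genes and FF sow 10 for 16, the latter being also the lowest for 5, and FF sows 8 and 14 were the lowest for 13 each. Leaving out FF sow 10 or RES sow 7 gave the most calls among the 48 genes. The RNA table of the study lists the animal numbered FF-10 with the lowest RNA integrity, and an FF animal was left out there for an abnormal integrity pattern. Among RES animals the same table gives the lowest integrity to RES-3. Number 9 is absent among the FF sows used here, so the row of FF sow 10 is matched with doubt. The part of RNA integrity in the values of FF sow 10 and RES sow 3 was not tested.

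RNA of most replication genes was higher in RES GCs, with at least 1 gene called in each of the 9 roles. Of the 48 genes, 35 were significantly higher in RES and 0 were lower (edgeR quasi-likelihood test, p-values adjusted by Benjamini-Hochberg over all 11384 genes, threshold 0.05), against 8.29% called higher and 5.85% called lower among all genes tested. An unadjusted p under 0.05 was reached by 44 of the 48, against 30.0% of all genes. The median log2 fold change of RES over FF was 0.83, compared with -0.015 over all genes, and 47 of the 48 estimates were above 0, ORC4 being the exception. In 29 of the 48 genes 13 or 14 RES sows exceeded the FF median, a pattern that 9.00% of all genes showed. DESeq2 called 37 of the 48 higher and 0 lower, against 9.55% of all genes called higher. Without RES sow 7 the count was 41, without FF sow 10 it was also 41, and without both it was 43 (chosen after seeing the data). Calls over all genes rose as well, from 8.29% higher in RES to 11.0%, 10.5% and 13.3%. In bulk RNA, fewer cells of a type and less RNA per cell cannot be told apart, so these values do not separate a larger share of replicating cells from more RNA in each.

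**Figure D1:**
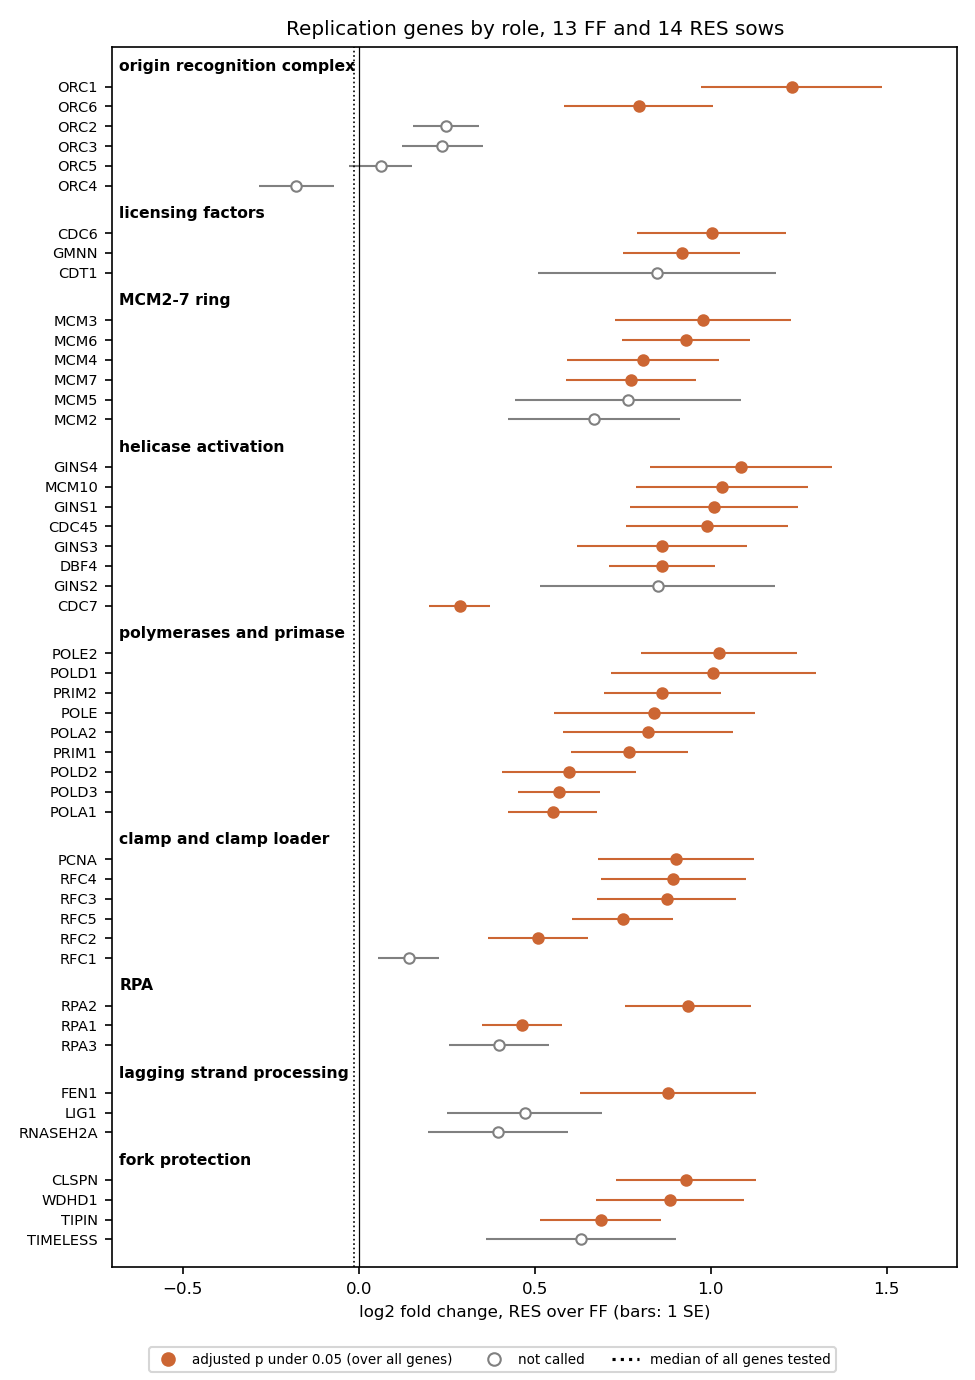
Log2 fold change of RES over FF (x axis, bars 1 SE) for the 48 genes in blocks by role, filled where the adjusted p was under 0.05, with the median of all genes tested as a dotted line. Within 3 complexes some subunits have smaller estimates than their partners: ORC2 to ORC5 against ORC1 and ORC6, CDC7 against DBF4, and RFC1 against RFC2 to RFC5.

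The estimates were larger in libraries of higher read quality, but the difference between the quality groups was not called, and the medians lay closer without FF sow 10 and RES sow 7. The study's sequencing summary gives each library's share of high-quality bases, which splits the libraries into an upper group of 7 FF and 7 RES and a lower group of 6 FF and 7 RES. FF sow 10, by its number, and RES sow 7 are both in the lower group. Within the upper group edgeR called 40 of the 48 higher, against 9.83% of all genes, and the median estimate of the 48 was 1.08 on the log2 scale. Within the lower group it called 0 (18 with an unadjusted p under 0.05; 1 gene called of all 11384, or 0.00878%), with a median of 0.49 and 46 of 48 estimates above 0. Without FF sow 10 and RES sow 7 (5 FF and 6 RES sows left, chosen after seeing the data) it called 14, against 2.49% of all genes, with a median of 0.78 and 47 estimates above 0. With all 27 sows the estimate was larger in the upper group for 42 of the 48 genes. A direct test of the difference, an interaction term added after seeing the data, called 0 of the 48 and 0 of all genes. Its unadjusted p was under 0.05 for 7 of the 48, against 12.3% of all genes, and its smallest adjusted p among the 48 was 0.293. With the quality group as a covariate, 35 of the 48 were called, as without it.

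The origin recognition complex changed in 2 of its 6 subunits. ORC1, the large ATPase subunit that recruits CDC6, had normalized counts of 56.7 at the lowest, 148 at the median and 301 at the highest in FF, and 92.9, 347 and 676 in RES. The counts of 9 RES sows lay above the highest FF sow, and 13 of 14 above the FF median. It was 1.23 ± 0.26 (SE) higher on the log2 scale in RES (edgeR adjusted p = 0.00277), the largest estimate of the 48 genes. ORC6, the smallest subunit, ran from 107 through a median of 175 to 406 in FF and from 157 through 357 to 711 in RES, and was 0.79 higher (adjusted p = 0.0136).

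The other 4 subunits, which with ORC1 form the ring that encircles DNA, were not called. ORC2 ranged from 216 to 349 in FF with a median of 262, and from 213 to 482 in RES with a median of 326. Its log2 fold change was 0.25 ± 0.09 (edgeR adjusted p = 0.0704), and 12 of 14 RES sows lay above the FF median. It was called without FF sow 13 or RES sow 5 or 7 (adjusted p = 0.0221 to 0.0438). ORC3 ranged from 581 to 988 in FF, median 761, and from 564 to 1508 in RES, median 939.6, with a log2 fold change of 0.24 (adjusted p = 0.163). ORC4 was the gene of the 48 with an estimate below 0. It ranged from 346 to 844 in FF, median 669, and from 479 to 777 in RES, median 618. The groups overlapped almost wholly, 3 of 14 RES sows lying above the FF median, and the log2 fold change was -0.18 ± 0.11 (adjusted p = 0.263). ORC5 had a log2 fold change of 0.06 (adjusted p = 0.676).

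The shift within the complex was tested as a ratio. The log2 ratio of ORC1 to ORC2 CPM (prior count 2) was -0.95 ± 0.73 (SD, n = 13) in FF GCs against 0.09 ± 0.51 (SD, n = 14) in RES GCs. It was 1.04 higher in RES, with 13 of 14 RES sows above the FF median (two-sided permutation test with 100000 resamples, p = 0.00027, adjusted over 6 ratios p = 0.00081). The difference was 1.45 within the upper quality group (adjusted p = 0.00524) and 0.60 within the lower (adjusted p = 0.307, exact permutation tests).

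Of the licensing factors, CDC6 and CDT1 load the MCM ring in G1 phase and GMNN restrains CDT1. CDC6 and GMNN were higher in RES and CDT1 was not called. CDC6, the ATPase that completes the loading machine, went from 37.3 through a median of 89.9 to 182 in FF and from 72.9 through 188 to 316 in RES. It was 1.00 ± 0.21 higher on the log2 scale (edgeR adjusted p = 0.00285). GMNN, geminin, the inhibitor that blocks CDT1 outside G1, went from 139 through 200.2 to 376 in FF and from 191 through 456 to 651 in RES. The counts of 9 RES sows lay above the highest FF sow, and the log2 difference was 0.92 ± 0.17 (adjusted p = 0.00183). CDT1, which brings the MCM ring to ORC, was scarcely counted, with 1.77 to 18.99 normalized counts in FF and 2.00 to 29.4 in RES. Its medians were 5.62 and 15.7 and 12 of 14 RES sows lay above the FF median. The log2 fold change of 0.85 ± 0.34 was not called (adjusted p = 0.0883), and its SE was the widest of the 48. Without FF sow 10 it was 1.04 and without RES sow 7 it was 0.94, both called (adjusted p = 0.0291 and 0.035).

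Neither ratio of CDT1 to its partners passed the test. The log2 ratio of CDT1 to its inhibitor GMNN was -4.68 ± 0.66 (SD, n = 13) in FF GCs against -4.88 ± 0.82 (SD, n = 14) in RES GCs, a difference of -0.20 (permutation test, adjusted p = 0.727). The log2 ratio of CDC6 to CDT1 was 3.33 ± 0.59 in FF and 3.67 ± 0.66 in RES, a difference of 0.35 (permutation test, adjusted p = 0.323). These values used a prior count of 2, and with 0.5 the differences were -0.08 for CDT1 to GMNN and 0.24 for CDC6 to CDT1 (permutation test, adjusted p = 0.804 and 0.689).

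The 6 genes of the MCM2 to MCM7 ring, the motor of the helicase, had log2 fold changes between 0.67 and 0.98, and 4 were called. MCM3 had the largest, with 48.1, 166 and 313 normalized counts at the lowest, median and highest FF sow and 83.9, 356 and 502 in RES. It was 0.98 ± 0.25 higher (edgeR adjusted p = 0.00976), and 13 of 14 RES sows lay above the FF median. MCM6 went from 1406 through 2387 to 3725 in FF and from 1642 through 4937 to 7427 in RES. The counts of 10 RES sows lay above the highest FF sow, and the log2 difference was 0.93 ± 0.18 (adjusted p = 0.00194). MCM4 and MCM7 were 0.81 and 0.77 higher (adjusted p = 0.0132 and 0.00600).

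MCM2 and MCM5 were not called. MCM2 went from 22.4 through 70.2 to 184 in FF and from 43.9 through 121 to 252 in RES GCs, a log2 fold change of 0.67 ± 0.25 (edgeR adjusted p = 0.0639). MCM5 went from 12.3 through 45.7 to 141 in FF and from 23.0 through 83.0 to 273 in RES GCs, a log2 fold change of 0.77 ± 0.32 (adjusted p = 0.106). In both genes FF sow 10 was the highest FF sow, and the FF and RES ranges overlapped. Without FF sow 10 the log2 fold changes were 0.87 for MCM2 and 0.98 for MCM5 (adjusted p = 0.00845 and 0.0278), and without RES sow 7 they were 0.74 and 0.84 (adjusted p = 0.026 and 0.0496). MCM2 was also called without FF sow 4 or RES sow 2. DESeq2 called MCM2 (adjusted p = 0.0388) and not MCM5 (0.0714). With sows of the same number paired as a block, edgeR did likewise (adjusted p = 0.0452 and 0.1). Within the upper quality group it called both (adjusted p = 0.0238 and 0.0182), and within the lower group neither.

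The subunits of the ring, which are present in equal numbers in the protein complex, differed widely in RNA level. Counts were made on Ensembl exons, so the values per kilobase of RefSeq exon combine 2 sets of gene models. Per kilobase of exon in RefSeq's models, MCM6 averaged 736 normalized counts in FF and 1450 in RES. The other 5 subunits averaged 18.4 (MCM2) to 86.3 (MCM4) in FF. In each sow MCM6 was above the next highest subunit, by 3.99 to 11.0 times in FF and 5.94 to 13.7 times in RES, with medians of 9.31 and 9.34. The lowest FF value was that of FF sow 10, and without it the FF range was 6.70 to 11.0 times. MCM6 exons have a GC content of 44.0%, and those of the other 5 lie between 55.1% (MCM3) and 64.3% (MCM5). Across the 47 genes with a RefSeq model, exon GC and log2 FF level per kilobase had r = -0.66, against -0.39 across 10583 tested genes; these are correlations across genes, which are not independent replicates. The part of GC content in these levels was not tested.

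**Figure D2:**
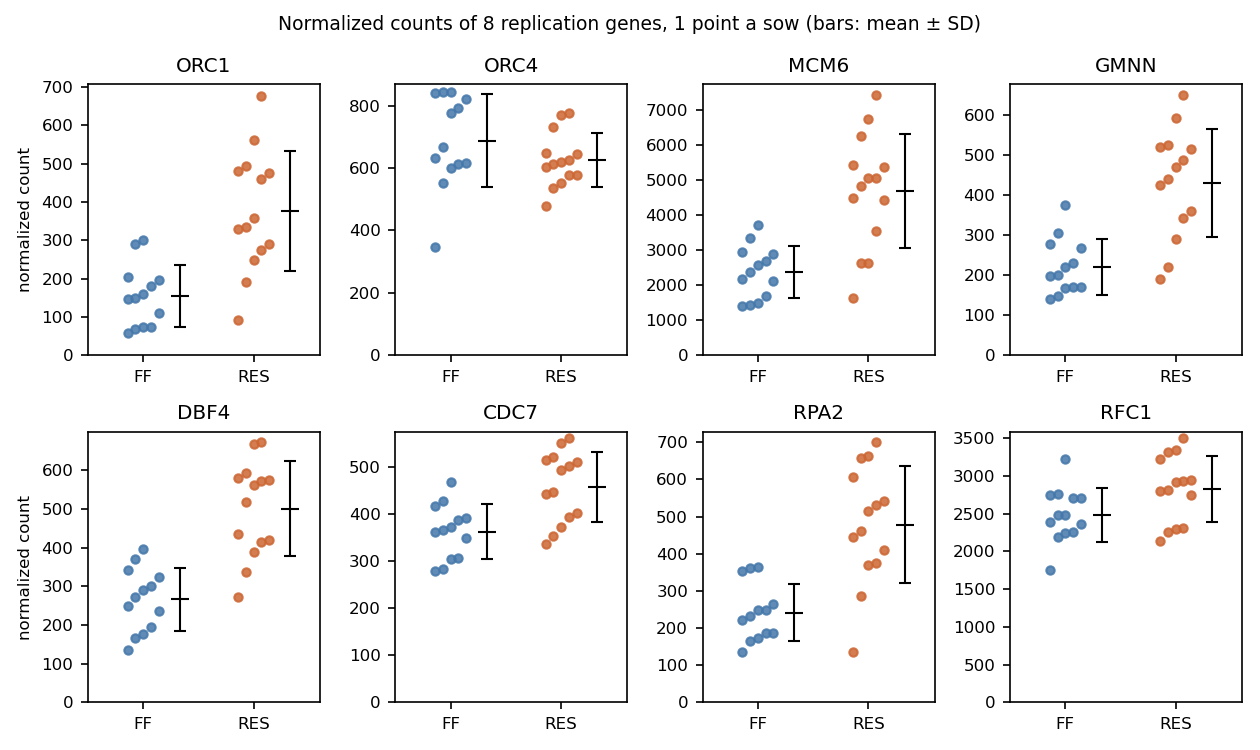
Normalized counts (y axes, from 0) of 8 genes with 1 point for each sow, bars showing mean ± SD over 13 FF and 14 RES sows. In DBF4 and RPA2, 11 and 12 of the 14 RES sows lie above the highest FF sow, while the ORC4 and RFC1 groups overlap almost wholly.

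Helicase activation held the highest median of the 9 roles, with a log2 fold change of 0.93 and 7 of 8 genes called higher. GINS4, a subunit of the GINS complex, went from 17.3 through 39.3 to 81.5 in FF and from 21.0 through 94.4 to 198 in RES, and was 1.09 ± 0.26 higher (edgeR adjusted p = 0.00589). CDC45, the other CMG partner of the ring, went from 30.8 through 63.9 to 149 in FF and from 43.9 through 129 to 220.3 in RES, and was 0.99 ± 0.23 higher (adjusted p = 0.00488). MCM10, which the CMG helicase needs to start moving, and GINS1 were 1.03 and 1.01 higher. In each of these 4 genes 13 of 14 RES sows lay above the FF median, and the remaining sow was RES sow 7. GINS3 was 0.86 higher (adjusted p = 0.0178).

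GINS2 was thinly counted and was not called. It ran from 5.59 through 9.53 to 25.3 in FF and from 0.998 through 21.2 to 45.7 in RES GCs, a log2 fold change of 0.85 ± 0.33 (edgeR adjusted p = 0.0836). Without FF sow 10 it was 0.99 and without RES sow 7 it was 0.95, both called (adjusted p = 0.0384 and 0.0203). Its RefSeq exons overlap those of GSE1 on the opposite strand over 6006 bases. The counting options in the files set no strand. Counts were made per Ensembl gene, and whether those gene models overlap here, and how such reads were counted, was not checked. In all, 11 of the 47 genes with a RefSeq model had exons that overlap a gene of the opposite strand, by 1 to 6006 bases. They include RFC1 with WDR19 (322 bases), MCM7 with AP4M1 (248), CLSPN with AGO4 (217), ORC1 with an unnamed locus (164) and RNASEH2A with PRDX2 (106), while CDC7, DBF4 and RFC4 overlap by 15 bases or fewer.

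The CDC7 kinase and its activator DBF4 differed in the size of their change. DBF4 went from 137 through 273 to 398 in FF and from 272 through 540.1 to 673 in RES. The counts of 11 RES sows lay above the highest FF sow, and the log2 difference was 0.86 ± 0.15 (edgeR adjusted p = 0.00183). CDC7 went from 278 through 366 to 468 in FF and from 335 through 469.5 to 559.8 in RES, with a log2 difference of 0.29 ± 0.09 (adjusted p = 0.0268). That call was lost without FF sow 8 or RES sow 9 (log2 fold changes 0.269 and 0.262, adjusted p = 0.0504 and 0.0506). It was also lost when sows of the same number were paired as a block (0.265, adjusted p = 0.0719). Within the upper and lower quality groups CDC7 had 0.324 and 0.253 and was not called (adjusted p = 0.11 and 0.399).

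The log2 ratio of DBF4 to CDC7 was -0.49 ± 0.35 (SD, n = 13) in FF GCs against 0.11 ± 0.20 (SD, n = 14) in RES GCs. All 14 RES sows exceeded the FF median. The difference of 0.60 had a p of 1e-05, the smallest that 100000 resamples can give (adjusted p = 6e-05, permutation test). It was 0.70 within the upper quality group (adjusted p = 0.0035) and 0.49 within the lower (adjusted p = 0.0734, exact permutation tests). No protein was measured here.

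**Figure D3:**
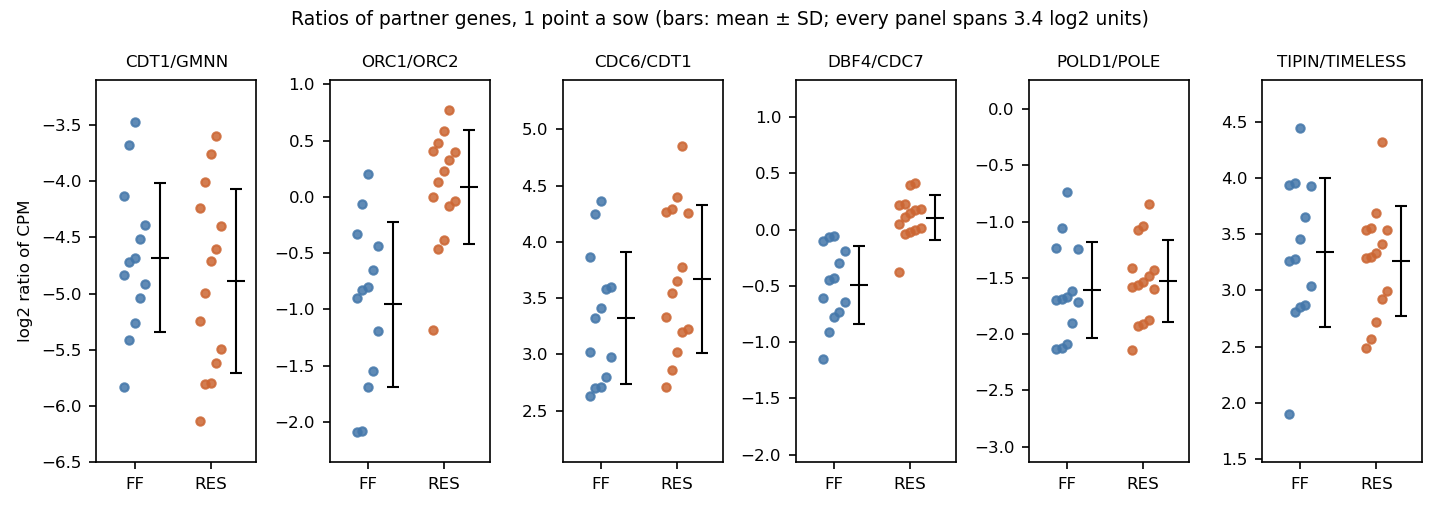
Log2 ratios of CPM for 6 pairs of partner genes, 1 point a sow, with mean ± SD for 13 FF and 14 RES sows and the same span on each y axis. ORC1/ORC2 and DBF4/CDC7 are shifted upwards in RES by 1.04 and 0.60, and the other 4 differ by -0.20 to 0.35 with wide overlap.

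All 9 polymerase and primase genes were higher in RES, with log2 fold changes from 0.55 to 1.02. POLE2, the second subunit of the leading-strand polymerase epsilon, had the largest. It went from 119 through 282 to 545 in FF and from 211 through 573.5 to 964 in RES, a log2 difference of 1.02 ± 0.22 (edgeR adjusted p = 0.00311). POLA1, the catalytic subunit of polymerase alpha, had the smallest. It went from 196 through 315 to 380.3 in FF and from 255 through 442 to 608 in RES, a log2 difference of 0.55 ± 0.13 (adjusted p = 0.00457), and 10 RES sows still lay above the highest FF sow.

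PRIM1, which lays the first RNA bases of a primer, went from 233 through 389 to 658 in FF and from 253 through 706 to 897 in RES, a log2 difference of 0.77 ± 0.17 (edgeR adjusted p = 0.00326). Its partner PRIM2 was 0.86 higher (adjusted p = 0.00194), and POLA2 0.82 higher (adjusted p = 0.0229). POLD3, an accessory subunit of the lagging-strand polymerase delta, was 0.57 higher (adjusted p = 0.00256), and it was the one gene of the 48 in which each of the 14 RES sows exceeded the FF median. The catalytic subunits of both main polymerases were counted at low levels. POLD1 went from 7.82 through 23.6 to 74.7 in FF and from 18.97 through 52.0 to 124 in RES, a log2 difference of 1.01 ± 0.29 (adjusted p = 0.0206).

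POLE went from 26.9 through 75.2 to 242 in FF and from 40.9 through 151 to 264 in RES, a log2 difference of 0.84 ± 0.28 (edgeR adjusted p = 0.0459). That call was lost in 17 of the 27 fits that left out 1 sow (FF sow 2, 5, 6, 7, 8, 11, 12, 13 or 14, or RES sow 1, 3, 6, 8, 9, 11, 12 or 13), with adjusted p up to 0.0782. POLD2 was 0.60 higher (adjusted p = 0.0343), a call lost without FF sow 6, 7, 8, 13 or 14 or RES sow 3, 6 or 9. In those fits its log2 fold change was 0.476 to 0.573 (adjusted p up to 0.0709). Within the upper and lower quality groups POLD2 had 0.574 and 0.628 and was not called (adjusted p = 0.114 and 0.415). The log2 ratio of POLD1 to POLE was -1.61 ± 0.43 (SD, n = 13) in FF GCs against -1.53 ± 0.37 (SD, n = 14) in RES GCs, and the difference of 0.08 was not called (permutation test, adjusted p = 0.740).

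Of the clamp and its loader, 5 of 6 genes were higher in RES. PCNA, the ring that tethers polymerases to DNA, went from 496 through 1084 to 2255 in FF and from 530.2 through 2109 to 3493 in RES. It was 0.90 ± 0.22 higher on the log2 scale (edgeR adjusted p = 0.00735), and 7 RES sows lay above the highest FF sow. RFC5 went from 52.3 through 85.5 to 126 in FF and from 61.9 through 155 to 219 in RES, a log2 difference of 0.75 ± 0.14 (adjusted p = 0.00194). Its exons overlap those of WSB2 on the opposite strand over 607 bases.

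RFC2 went from 84.95 through 118 to 179 in FF and from 87.9 through 181 to 299.5 in RES, a log2 difference of 0.51 ± 0.14 (edgeR adjusted p = 0.0178). RFC3 and RFC4 were 0.87 and 0.89 higher. RFC1, the large subunit specific to the replicative loader, was not called. It went from 1755 through 2479 to 3221 in FF and from 2136 through 2868 to 3499 in RES GCs, a log2 fold change of 0.14 ± 0.09 (adjusted p = 0.273). Per kilobase of RefSeq exon it had 314 normalized counts in FF, against 38.4 (RFC5) to 135 (RFC4) for the other 4 loader subunits.

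The 3 RPA subunits form 1 complex, and 2 of them were called. RPA2, the subunit that is phosphorylated on stressed forks, went from 136 through 232 to 365 in FF and from 137 through 489 to 700.3 in RES. The counts of 12 RES sows lay above the highest FF sow, the most for any of the 48 genes, and the log2 difference was 0.94 ± 0.18 (edgeR adjusted p = 0.00194). RPA1, the main DNA-binding subunit, went from 171 through 279 to 355 in FF and from 241 through 393 to 568 in RES, a log2 difference of 0.46 ± 0.11 (adjusted p = 0.00760). RPA3 went from 234 through 532 to 905 in FF and from 462 through 804 to 978 in RES GCs, a log2 fold change of 0.40 ± 0.14 (adjusted p = 0.0569). RPA3 was called in 5 fits that left out 1 sow (FF sow 3 or 4, or RES sow 5, 7 or 10, adjusted p = 0.0219 to 0.0381). DESeq2 called RPA3 as well (adjusted p = 0.0429). By edgeR it was not called with sows of the same number as a block (adjusted p = 0.0628) or within the upper quality group (adjusted p = 0.219). The lowest FF value was that of FF sow 10, without which the log2 fold change was 0.33 (adjusted p = 0.0589).

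Lagging strand processing was called in 1 of 3 genes. FEN1, the nuclease that trims the flaps of Okazaki fragments, went from 25.7 through 74.3 to 185 in FF and from 41.9 through 151 to 232 in RES, a log2 difference of 0.88 ± 0.25 (edgeR adjusted p = 0.0196). LIG1, the ligase that seals them, had a log2 fold change of 0.47 ± 0.22 (adjusted p = 0.147), or 0.66 without FF sow 10 (adjusted p = 0.0204). RNASEH2A, the catalytic subunit of the enzyme that removes ribonucleotides from DNA, went from 22.1 through 32.6 to 47.0 in FF and from 18.5 through 43.6 to 97.9 in RES. Its log2 fold change of 0.40 ± 0.20 was not called (adjusted p = 0.175), and 9 of 14 RES sows lay above the FF median.

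Fork protection was called in 3 of 4 genes. CLSPN, claspin, which links the helicase to the checkpoint kinase CHEK1, went from 201 through 424 to 791 in FF and from 316 through 892 to 1385 in RES. The counts of 10 RES sows lay above the highest FF sow, and the log2 difference was 0.93 ± 0.20 (edgeR adjusted p = 0.00294). WDHD1, which couples polymerase alpha to the helicase, was 0.89 higher (adjusted p = 0.00581). TIPIN went from 211 through 404 to 636 in FF and from 283 through 741 to 986.5 in RES, a log2 difference of 0.69 ± 0.17 (adjusted p = 0.00821). Its exons overlap those of DIS3L on the opposite strand over 884 bases.

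TIMELESS, the partner of TIPIN at the fork, was not called. It went from 12.1 through 37.1 to 144 in FF and from 26.96 through 70.5 to 121 in RES, so that the highest sow of all was an FF sow. The log2 fold change was 0.63 ± 0.27 (edgeR adjusted p = 0.112), with 1.31 among libraries of upper quality (adjusted p = 0.0111) and -0.09 among those of lower quality (adjusted p = 0.956). The highest TIMELESS value was that of FF sow 10, and without this sow the log2 fold change was 0.94 (adjusted p = 0.0047). The log2 ratio of TIPIN to TIMELESS was 3.34 ± 0.66 (SD, n = 13) in FF GCs against 3.26 ± 0.49 (SD, n = 14) in RES GCs (permutation test, adjusted p = 0.743).

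**Figure D4:**
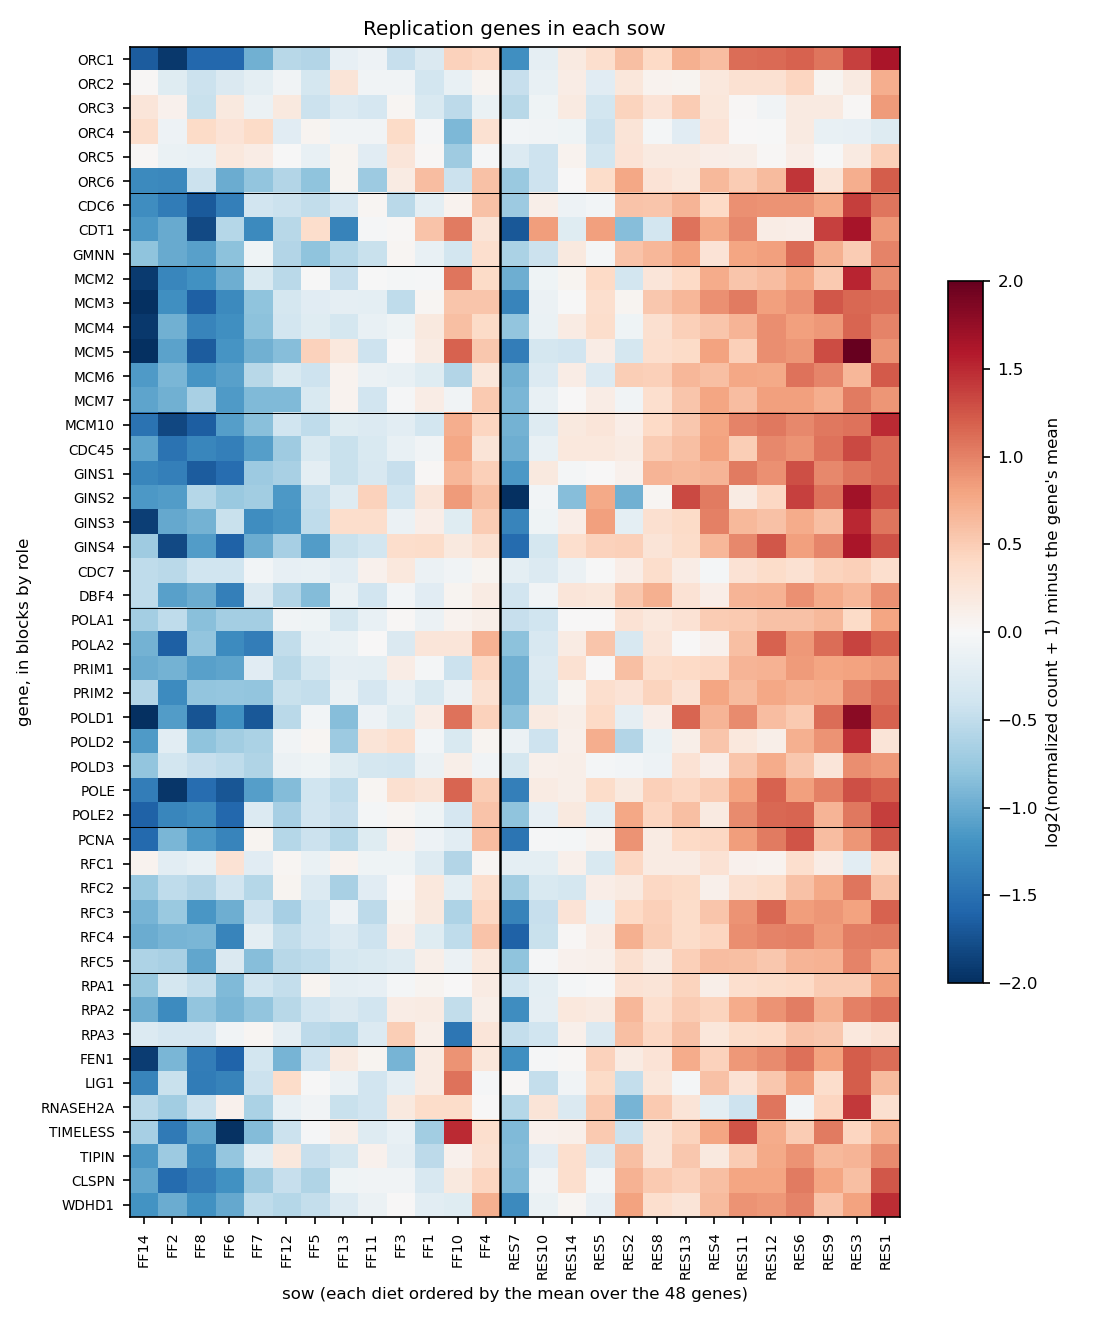
Log2(normalized count + 1) minus each gene's mean over the 27 sows (colour), with genes in blocks by role (y axis) and sows of each diet ordered by their mean over the 48 genes (x axis). RES sow 7 has a mean of -0.83, between those of FF sow 7 (-0.55) and FF sow 6 (-0.87), and ORC4 is lowest in FF sow 10 and ORC3 highest in RES sow 1.

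Sows differed from one another along most of the list. The mean difference from the all-sow mean, over the 48 genes on the log2 CPM scale, lay between -0.96 (FF sow 14) and 0.32 (FF sow 4) in FF and between -0.83 (RES sow 7) and 0.85 (RES sow 1) in RES. RES sow 7 lay below the FF median in 44 of the 48 genes, and RES sow 6 lay above it in all 48. FF sow 4 lay above the median of its own group in 46 genes and FF sow 2 below it in 47. The SD within a diet on the log2 CPM scale had a median of 0.54 over the 48 genes in both diets, against 0.36 in FF and 0.35 in RES over all genes tested.

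The genes varied together within each diet. Over the 1128 pairs of the 48 genes, the median Pearson r of log2 CPM was 0.69 across the 13 FF sows and 0.77 across the 14 RES sows, where all pairs of tested genes had a median of 0.0. Points of a pair share their library and its depth, so these values are descriptive. Without RES sow 7 the RES median was 0.66. Among roles, the MCM2 to MCM7 ring had the highest median r within itself in RES, at 0.93 (0.82 in FF), and MCM3 with MCM5 reached 0.94 in FF and 0.90 in RES.

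ORC3, ORC4, ORC5 and RFC1 had the lowest values in FF, with median r of -0.38, -0.35, -0.20 and -0.28 with the other 47 genes. In RES, ORC4 alone was below 0, at -0.10, while ORC2 had 0.71, ORC5 0.57 and ORC3 0.51, and RFC1 (0.33), RNASEH2A (0.39) and POLD2 (0.43) were lower than these. Taken as a group, ORC2 to ORC5 had a median r with the genes of the other roles of -0.24 in FF and 0.49 in RES, or 0.25 in RES without sow 7 and -0.08 in FF without sow 10. ORC1 and ORC6 had 0.74 in FF and 0.81 in RES. RFC1 had -0.30 in FF and 0.27 in RES, or -0.15 in FF without sow 10 and 0.13 in RES without sow 7. RPA3 had a median r with the other 47 genes of -0.04 in FF and 0.63 in RES. Whether these values differ between the diets was not tested.

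**Figure D5:**
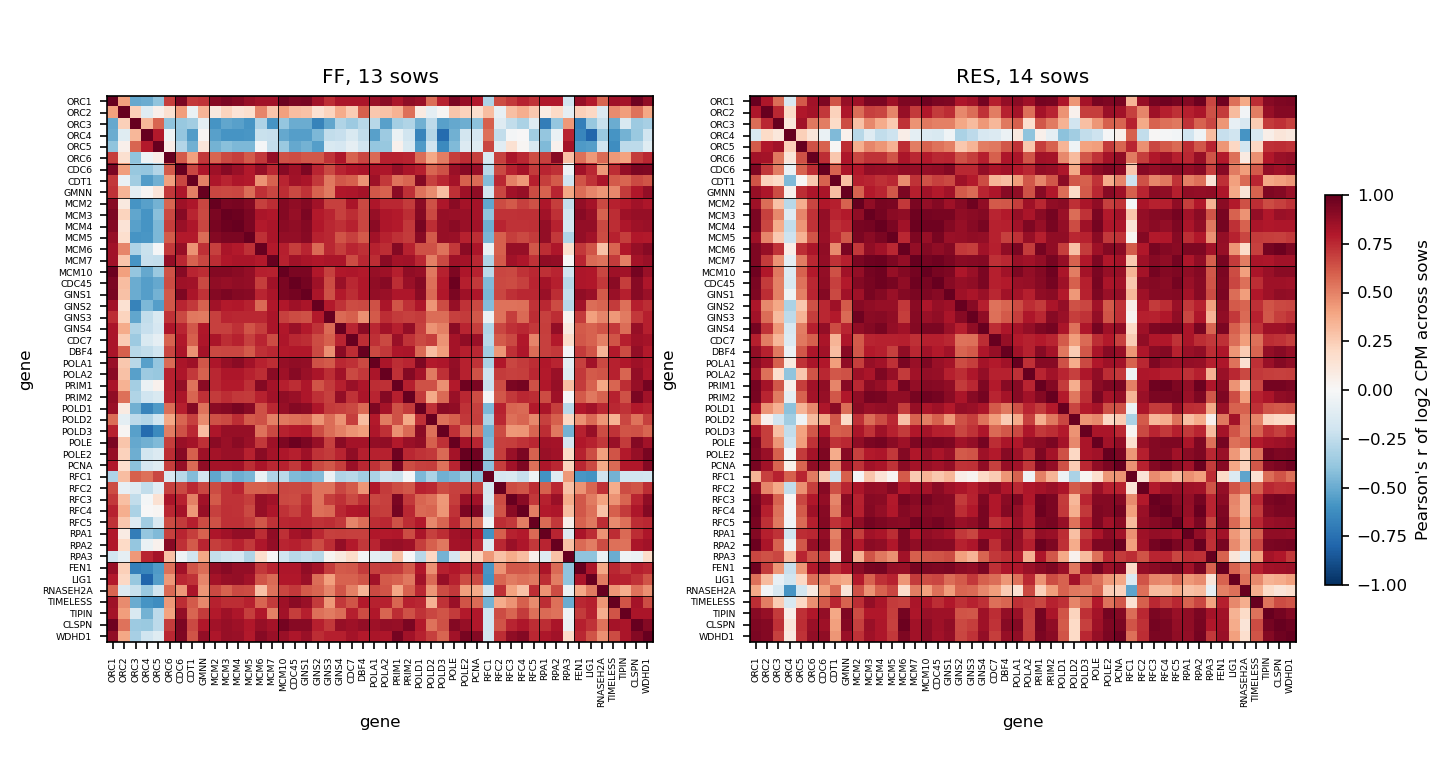
Pearson's r of log2 CPM between the 48 genes (both axes, in the order of roles) across 13 FF sows and 14 RES sows. Pairs have a median r of 0.69 in FF and 0.77 in RES, and ORC3, ORC4, ORC5 and RFC1 form pale or negative bands in FF.

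The 13 pairs of partners were tested after the mean of each diet had been subtracted (27 sows, permutation of sows within diet with 100000 resamples, p-values adjusted over 13 pairs). Of these, 12 were positively correlated. Across all 1128 pairs of the list the median r was 0.69 in FF and 0.77 in RES, so a correlation above 0 does not set partners apart. MCM3 and MCM5 had r = 0.92 and rho = 0.91 (adjusted p = 1.62e-05 and 2.6e-05, raw p of both 1e-05, the smallest possible), and r = 0.90 without the 2 sows farthest from the MCM3 median. CDC7 and DBF4 had r = 0.79 and rho = 0.75 (adjusted p = 1.62e-05 and 5.57e-05), with r = 0.81 among libraries of upper and 0.75 among those of lower quality, although their ratio differed between the diets. RPA1 and RPA2 had r = 0.81, POLA1 and PRIM1 0.83, POLE and POLE2 0.83, RFC2 and RFC5 0.83, CDC45 and GINS2 0.82, and PCNA and FEN1 0.81, each with an adjusted p of 1.62e-05. The rho of these 6 pairs lay between 0.73 (PCNA and FEN1) and 0.86 (POLE and POLE2).

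The other 5 pairs had lower values. MCM2 and MCM6 had r = 0.67 and rho = 0.65 (adjusted p = 8.67e-05 and 0.000607), and CDC6 and CDT1 r = 0.63 and rho = 0.55 (adjusted p = 0.000754 and 0.00416). TIMELESS and TIPIN had r = 0.58 and rho = 0.57 (adjusted p = 0.0018 and 0.00416). None of these 3 pairs passed in both quality groups. MCM2 and MCM6 had r = 0.86 in the upper and 0.48 in the lower group (permutation test, adjusted p = 0.00091 and 0.113). CDC6 and CDT1 had r = 0.45 and 0.71 (adjusted p = 0.174 and 0.0123), and TIMELESS and TIPIN 0.60 and 0.55 (adjusted p = 0.0574 and 0.078). ORC2 and ORC3 had r = 0.58 and rho = 0.40 (adjusted p = 0.00308 and 0.0482). Their r fell to 0.31 without the 2 sows farthest from the ORC2 median, so that relation depends in part on those sows. Without each sow in turn r was 0.46 to 0.65, and it was 0.24 within FF and 0.75 within RES. By quality group ORC2 and ORC3 had r = 0.48 (upper) and 0.64 (lower; adjusted p = 0.161 and 0.0224). CDT1 and its inhibitor GMNN were the pair that did not pass, with r = 0.38 and rho = 0.26 (adjusted p = 0.0543 and 0.195).

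Base composition moved with this variation between sows. Within each sow, the deviation from its diet mean was set against exon GC across the 47 genes with a RefSeq model. The r ranged from -0.69 (FF sow 7) to 0.71 (FF sow 10) in FF and from -0.85 (RES sow 2) to 0.83 (RES sow 3) in RES. Without FF sow 10 the highest FF value was 0.64, and 0.31 over all tested genes. Across 10583 tested genes the range was -0.30 to 0.45 in FF and -0.54 to 0.47 in RES. Exon GC and the log2 fold change of RES over FF had r = 0.25 across the 47 genes and 0.02 across the 10583. The part of base composition in the correlations between genes was not tested.

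Promoters were read to see what the genes share in sequence. For 47 of the 48 genes, all but TIMELESS, the window from 250 bases before to 50 bases after the RefSeq gene start was taken from Sscrofa11.1, the build of the count files. The E2F core, the binding motif of the factors that drive genes of S phase, was searched as TTCCCGC or TTCGCGC or TTGCCGC or TTGGCGC on both strands, overlapping matches being counted apart. It occurred in 24 of the 47 windows (51.1%), against 13.1% of 20607 protein-coding promoters and 17.4% of the 10583 promoters of tested genes. At least 2 matches occurred in 12 windows (25.5%), against 1.6% and 2.3%. The windows of these genes had a median GC of 61.7%, close to the 62.0% of tested genes.

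The 4 windows whose 2 or more cores all lie wholly before the start and within 140 bases of it are shown for how the cores are arranged, with PCNA for a gene higher in RES that has none. Capitals mark E2F cores on either strand, and each stretch runs 5′ to 3′ on the strand of the gene over the 140 bases before its start: MCM6 at chr15:15923498-15923637 (+), RPA2 at chr6:85045900-85046039 (-), POLA1 at chrX:20756534-20756673 (+), RPA1 at chr12:48009512-48009651 (+) and PCNA at chr17:14142585-14142724 (-).
MCM6: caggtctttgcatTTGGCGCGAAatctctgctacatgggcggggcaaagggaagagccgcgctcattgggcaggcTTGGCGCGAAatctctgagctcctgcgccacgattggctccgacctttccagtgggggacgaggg
RPA2: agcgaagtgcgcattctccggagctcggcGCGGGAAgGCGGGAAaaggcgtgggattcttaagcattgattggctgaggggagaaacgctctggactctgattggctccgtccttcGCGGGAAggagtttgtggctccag
POLA1: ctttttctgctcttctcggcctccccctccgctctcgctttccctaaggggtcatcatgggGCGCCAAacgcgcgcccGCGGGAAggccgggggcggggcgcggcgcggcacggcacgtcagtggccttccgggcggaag
RPA1: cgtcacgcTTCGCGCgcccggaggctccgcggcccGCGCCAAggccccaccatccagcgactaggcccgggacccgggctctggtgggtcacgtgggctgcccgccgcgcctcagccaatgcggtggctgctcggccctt
PCNA: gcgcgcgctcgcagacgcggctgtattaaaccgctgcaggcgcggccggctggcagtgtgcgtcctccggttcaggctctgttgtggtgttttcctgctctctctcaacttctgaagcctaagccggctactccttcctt

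In MCM6 the 4 cores form 2 overlapping pairs, in which cores of opposite strands start 3 bases apart and make up a palindrome-like run of 10 bases. The run stands within a stretch of 17 bases, TTGGCGCGAAatctctg, that occurs in 2 copies starting at bases -127 and -65 from the gene start, 62 bases apart. The form of such paired cores was chosen after MCM6 and ORC1 had been seen, so those windows were bound to match and the share below is no test. Paired cores (TTCGCGCCAA, TTCGCGCGAA, TTGGCGCCAA and TTGGCGCGAA) were present in 3 of the 47 windows (6.38%), against 20 of all 20607 (0.0971%) and 15 of the 10583 of tested genes (0.142%). Of all 20607 windows, 1 held a pair of them, and it was that of MCM6. The other members with a paired core were ORC1, which has the MCM6 form after its start, and TIPIN, where it lies across the start. They are shown over chr6:159819327-159819351 (+) and chr1:164369288-164369317 (-).
ORC1: ggggcctcggcttTTGGCGCGAAtt
TIPIN: gattgcgcaaatTTGGCGCCAActctaagg

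Fold changes were set beside the matches. The 24 genes with an E2F core had a median log2 fold change of 0.82 (20 called higher) and the 23 without one 0.85 (15 called higher). Gene starts were taken as annotated and not checked. Among windows without a core, those of POLA2, GINS3, CDC6 and PRIM2 had a GC of 37.3%, 46.0%, 47.7% and 48.3%. The window of RFC3, which has 1 core, had 36.7%. A window without a match thus does not show that the gene lacks the motif near the start it uses. RPA2 has 3 cores and rose by 0.94, and RPA1 has 2 and rose by 0.46. Helicase activation, the role with the highest median, had an E2F core in 1 of its 8 windows, that of CDC7. The CCAAT box (CCAAT on both strands) was in 7 of those 8 windows and in 23 of the 47 (48.9%), against 35.7% of all promoters and 36.1% of tested ones. The CHR core of late cell cycle genes (TTTGAA and TTCGAA on both strands) was in 5 of the 47 (10.6%), against 16.1% and 14.2%. Of the ORC and RFC subunits that were not called, ORC3 and ORC5 have 1 E2F core each and ORC2, ORC4 and RFC1 none. A match is a description of these letters in this window and no test of binding.

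The wider replication machinery was followed in 4 other lists, of which the largest change in each direction is named. Of 14 accessory factors of initiation, 7 were called higher and 0 lower, led by TICRR, which brings CDC45 to the loaded ring (log2 fold change 0.98, edgeR adjusted p = 0.0106). No estimate of that list was below 0. Of 15 tested accessory factors of the fork, 6 were called higher and 0 lower. TOP2A, the topoisomerase that untangles daughter strands, had the largest estimate (1.155, adjusted p = 0.00322), and POLD4, the small subunit of polymerase delta, the one below 0 (-0.30, adjusted p = 0.186).

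Of 8 checkpoint genes, 4 were called higher and 0 lower. CHEK1, the kinase that claspin activates, led them (0.96, edgeR adjusted p = 0.00505), and no estimate of the list was below 0. Of 5 genes that act on the degradation of CDT1, 2 were called higher and 0 lower. DTL, which targets CDT1 on chromatin-bound PCNA, was at 0.90 (adjusted p = 0.00547), and CUL4A, the scaffold of the same ligase, at -0.02 (adjusted p = 0.905).

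Markers of other cell types moved in part the other way. Of 6 tested endothelial markers 2 were lower in RES, CDH5 by a log2 fold change of -0.56 (edgeR adjusted p = 0.0113) and CLDN5 by -0.80 (adjusted p = 0.00797), while TIE1 had 0.395 and PECAM1 -0.12. The median estimate was -0.49 over the endothelial list, -0.24 over theca, -0.27 over stroma and -0.47 over immune markers. The 7 with an identifier summed to 831 to 1513 normalized counts in FF and 566 to 1780 in RES. Of 5 theca markers CYP11A1 was lower (-1.28, adjusted p = 0.00920), and the list summed to 1309 to 4200 in FF and 629 to 3732 in RES. Of 9 stroma markers PDGFRB was lower (-0.61, adjusted p = 0.0402), with sums of 13790 to 42980 in FF and 11250 to 39010 in RES. None of the 3 tested immune markers was called, and the 6 summed to 63.3 to 399 in FF and 42.9 to 304 in RES. The oocyte list summed to 164 to 355 in FF and 148 to 318 in RES. The part of other cell types in the replication gene values was not tested.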

How the data were processed

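RNA was sequenced from laser-captured mural GCs of 13 FF and 14 RES sows after rRNA removal, with dUTP strand marking. Per the file headers the authors deposited raw read counts per Ensembl gene from featureCounts 1.6.2 on exons of Sscrofa11.1, with no strand option. By the study's methods reads were aligned with HISAT2 2.2.1, those mapped to 1 place were kept with SAMtools 1.16.1, and PCR duplicates were removed with UMI-tools 1.1.4 before counting. Whole counts were used as deposited. Of 35670 identifiers, 17467 had a mean count of at least 5, and the 11384 of these with a symbol that is no small RNA were tested with edgeR 4.0.16 (R 4.3.3, TMM, quasi-likelihood test, RES against FF, no covariate). DESeq2 1.42.0 and voom in limma 3.58.1 were alternatives. The study's methods name DESeq2, which enters here as an alternative. The fits were tested on simulated counts. Ratios and correlations used log2 CPM with a prior count of 2 and 100000 resamples. Promoters, exon lengths and GC came from RefSeq's Sscrofa11.1. All 48 genes are accounted for; in each role the genes with the largest and smallest change, and the genes of the tested pairs, have their lowest, median and highest value given. Members and lists were chosen with earlier results of these data known. Libraries are separate sows, and no 2 held matching counts. Alternatives are given in the closing section.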

Additional observations from a re-analysis of the deposited data

How the results depend on the processing

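The 35 replication genes called higher were 32 to 41 when each sow was left out in turn (32 without FF sow 8 or RES sow 9, 41 without FF sow 10 or RES sow 7), and 32 of the 35 were called in all 27 of those fits. The count was 35 to 43 under 10 of the 11 alternatives in processing or design that keep all sows of their group, with none called lower in any. Within the lower read quality group 0 of the 48 genes, 0 of the 6 partner ratios and 1 of all genes were called by edgeR and the permutation tests, and 18 of the 48 genes had an unadjusted p under 0.05; without FF sow 10 and RES sow 7 that group gave 14 of the 48. Within the upper group 40 genes and 2 ratios were called. Over all genes the 1610 calls became 3193 with voom and sample quality weights, 1182 to 2350 when each sow was left out (1182 without FF sow 6 or RES sow 1, 2350 without RES sow 7). The 2 ratios called stayed 2 without each sow in turn, and the 12 correlated pairs were 12 to 13, with 9 within the upper and 10 within the lower quality group. The correlation of CDT1 with GMNN, which was not called, was called in 9 of 32 alternatives, without FF sow 5 or 7 or RES sow 2, 3, 5, 6, 8, 10 or 12.

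With the replicate number as a block, 35 of the 48 genes, 34 of them called without it, 1086 of all genes and 2 ratios were called. The 13 pairs of same-numbered sows had a median correlation of deviations of 0.01, from -0.24 to 0.31, and 0 sows correlated best with their own number, so the samples share only a number.

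Values that changed sign were not called under either setting: within the upper quality group CDT1/GMNN at 0.14 and POLD1/POLE at -0.01, within the lower group TIPIN/TIMELESS at 0.41 and TIMELESS at -0.085, and TIPIN/TIMELESS between -0.19 and 0.02 when each sow was left out (0.02 without FF sow 6). The cause was not tested. CDT1 and GINS2, with FF medians of 5.62 and 9.53 normalized counts, had the widest SEs of the 48 genes.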
